A study of Mus musculus with 4 samples.

Results

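The ErbB receptors and their growth factor ligands were examined in 4 RNA-seq libraries of primary mouse astrocytes, 2 labelled WT and 2 labelled Tet1 KO, fewer per genotype than the biological repeats described for the experiment. The family was taken as 10 genes matched by symbol, the receptor genes Egfr, Erbb2, Erbb3 and Erbb4 and the ligand genes Egf, Tgfa, Hbegf, Areg, Ereg and Nrg1. All 10 were present among the 25393 genes of the table, and all 10 passed the minimum mean of 1 normalized count. The cells came from cortex and hippocampus of untreated C57BL/6 pups at postnatal day 1, either wild type or carrying the tet1-/- genotype, a constitutive knockout that affects every cell of the animal. Per the labels, 2 pups were pooled in each isolation, the cells grew for about 7 days and were purified by shaking at 260 rpm, and RNA was taken 24 h later. The labels give no sex for the pups, and nothing in them says whether libraries of 1 group came from separate cultures, so each p-value measures only the spread between these libraries.

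ErbB receptors are tyrosine kinases that signal as dimers. The EGF receptor binds EGF, TGF-alpha, HB-EGF, amphiregulin and epiregulin, whereas neuregulins bind ErbB3 and ErbB4. ErbB2 binds no known ligand and acts as the preferred partner of the others, and ErbB3 has a weak kinase and depends on its partner. Most ligands are made as membrane-anchored precursors and are released by ADAM proteases, after which the receptors feed the Ras, ERK and PI3 kinase cascades. In the brain, EGF receptor signalling is known for its role in glial progenitors and astrocytes, and neuregulin signalling through ErbB3 and ErbB4 for its role in the oligodendrocyte lineage and in interneurons.

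Normalized counts are reads divided by a size factor for each library, and 3 reads, taken as the floor of detection, corresponded to 3.20 and 2.76 normalized counts in WT against 3.21 and 2.70 under the KO label. The libraries held 18749610 and 22673555 reads on genes in WT, and 20702980 and 22403163 in those labelled KO. Tet1 itself had 266 and 121 normalized counts in WT against 173 and 463 under the KO label. The groups overlapped, and a count over the whole gene cannot separate transcripts with and without the deleted part. The paper describes Tet1 mRNA as barely detectable in knockout astrocytes, which these counts do not show. The knockout libraries are therefore named by their label. The astrocyte marker Gfap reached 687 and 765 FPKM in WT against 1871 and 117 FPKM under the KO label, so that replicate 1 of that label was the highest and replicate 2 the lowest of the 4 libraries in this marker. The 7 astrocyte markers summed to 1327 and 1312 FPKM in WT against 2249 and 325 FPKM under the KO label. Gfap was the largest part of this sum in each library. Of the 7 markers, 5 were lower under the KO label without overlap between the groups, whereas Gfap and S100b overlapped. FPKM is the read count scaled by gene length and by the reads of the library, and it was used wherever levels of different genes were compared. Slc1a3, the glutamate transporter GLAST, was at 239 and 243 FPKM in WT against 152 and 106 FPKM under the KO label, and Aldh1l1 was at 52.3 and 63.7 against 44.5 and 27.3 FPKM.

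The ligand gene Hbegf was higher in both KO-labelled libraries, 5.74-fold by the fit, and the receptor genes Erbb3 and Erbb4 were 5.51-fold and 14.5-fold lower. The main receptor genes Egfr and Erbb2 and the neuregulin gene Nrg1 differed by less than the spread between libraries. Tgfa and Areg were high in KO-labelled replicate 2 alone. In limma, 0 of the 10 genes reached an adjusted p under 0.05, as did 0 of all 22094 genes tested (0%), and at an unadjusted p under 0.05 there were 3 of the 10 (1 higher and 2 lower) beside 13.7% of all genes, 4.54% higher and 9.18% lower. DESeq2 on the recovered reads called these 3 genes at an adjusted p under 0.05. Hbegf stood beside 1.29% of all genes called higher, and Erbb3 and Erbb4 beside 3.63% called lower. Those shares are over all 22094 genes, of which 4712 got no adjusted p from DESeq2 and could not be called. In edgeR, 0 of the 10 and 0 of all genes were called, and 2733 genes had an unadjusted p under 0.05. The groups did not overlap for 4 of the 10 genes, Hbegf higher and Erbb3, Erbb4 and Egf lower, and this share is no larger than the 47.9% found over all genes tested (22.5% higher and 25.4% lower). For any 1 gene, the smallest p that an exact two-sided permutation test allows with 2 libraries per group is 0.33.

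**Figure D1:**
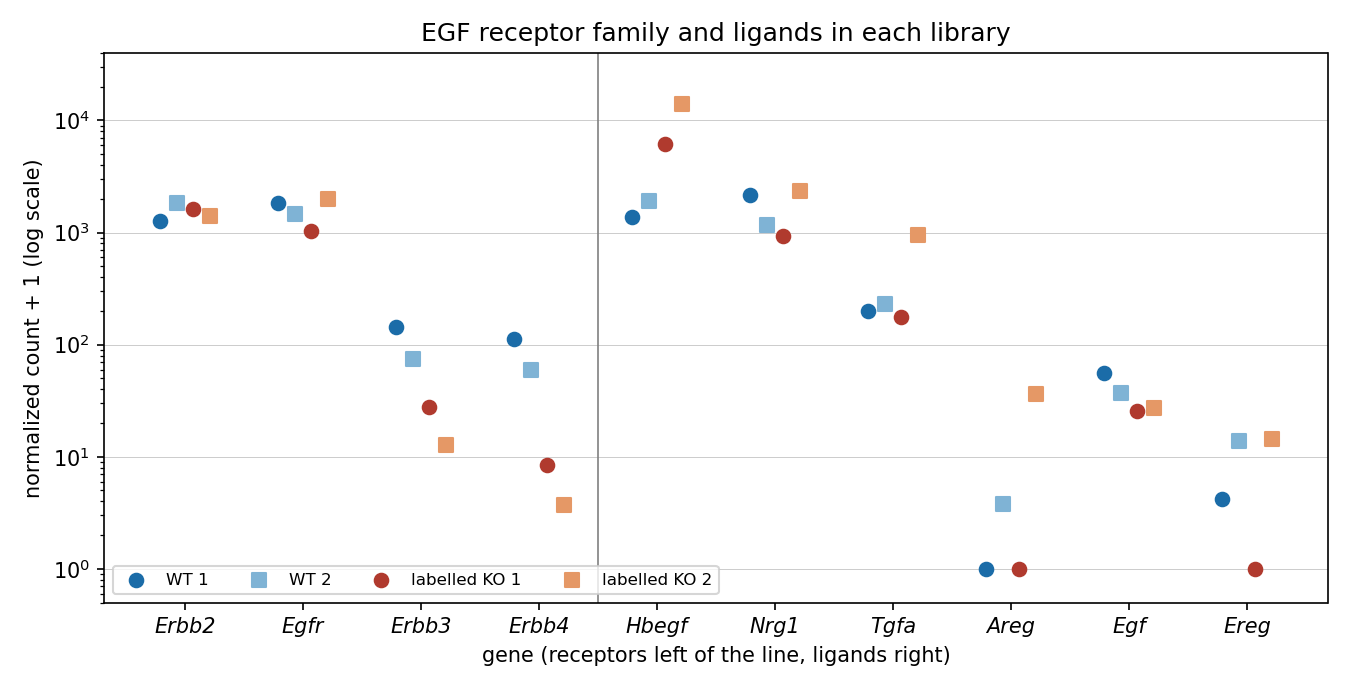
Normalized count plus 1 on a log axis for each of the 10 genes in each library, with WT in blue and the KO-labelled libraries in red and orange (circles replicate 1, squares replicate 2). Hbegf lies higher and Erbb3 and Erbb4 lie lower in both KO-labelled libraries than in both WT libraries, while Tgfa and Areg stand out in KO-labelled replicate 2.

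Among the receptors the order of levels was the same in every library. Erbb2 was the most abundant, with 12.2 and 16.9 FPKM in WT against 14.2 and 13.3 FPKM under the KO label. Egfr followed with 8.08 and 6.26 FPKM in WT against 4.14 and 8.78 FPKM under the KO label. The ranges of these neighbours did not overlap, although their ratio moved from 1.51 to 3.42 between libraries. Erbb3 had 1.19 and 0.586 FPKM in WT against 0.201 and 0.0965 FPKM under the KO label. Erbb4 was the lowest, with 0.449 and 0.225 FPKM in WT against 0.0274 and 0.0108 FPKM under the KO label. Over all 4 libraries the ranges of Erbb3 and Erbb4 overlapped, while within each library Erbb3 was the higher of the pair. Together Erbb2 and Egfr made up 92.5% and 96.6% of the receptor FPKM in WT and 98.8% and 99.5% in the KO-labelled libraries, and the sum over the receptors stayed between 18.5 and 24.0 FPKM.

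Egfr (ENSMUSG00000020122), the receptor of EGF, lies on the plus strand of chromosome 11 of GRCm38 from 16752203 to 16918158. It had 1831 and 1478 normalized counts in WT against 1038 and 2007 under the KO label, or 1654 ± 250 (SD, n = 2) against 1523 ± 685 (SD, n = 2). The lowest and the highest library both carried the KO label, so the groups overlapped. The fitted difference was -0.19 on the log2 scale (standard error, SE, 0.41, adjusted p = 0.865 from limma), and without KO-labelled replicate 1 it turned to 0.29. Erbb2 (ENSMUSG00000062312, chromosome 11, plus strand, from 98412470 to 98437716), the ligand-less partner, had 1270 and 1835 normalized counts in WT against 1636 and 1402 under the KO label. Both KO-labelled libraries lay between the WT libraries. Its log2 fold change was -0.01 (SE 0.32, adjusted p = 0.993 from limma).

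Erbb3 (ENSMUSG00000018166), the neuregulin receptor with a weak kinase, lies on the minus strand of chromosome 10 from 128567523 to 128589652. It had 143 and 73.6 normalized counts in WT against 26.8 and 11.7 under the KO label, which corresponds to 134 and 80 reads against 25 and 13. Every KO-labelled library was below every WT library, and each group spanned about as wide a range as the other on the log2 scale (-0.95 from replicate 1 to replicate 2 in WT, -1.13 in the KO-labelled libraries). The fitted difference was -2.46 on the log2 scale (SE 0.69, adjusted p = 0.261 from limma, 0.0277 from DESeq2 and 0.292 from edgeR). It was -1.90 without KO-labelled replicate 2 and -3.03 without KO-labelled replicate 1, and the DESeq2 adjusted p was 0.00697 without the latter library and 0.167 to 1.0 without each of the others. Each fit without 1 library leaves 1 library in a group, which is then assumed to vary like the other group. Here and for the other genes, p-values from such fits rest on the spread of 1 pair of libraries and variance shared over all genes.

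Erbb4 (ENSMUSG00000062209), a neuregulin receptor with a full kinase, lies on the minus strand of chromosome 1 from 68032186 to 69108059. It had 111 and 57.9 normalized counts in WT against 7.49 and 2.70 under the KO label. The reads were 104 and 63 in WT against 7 and 3 under the KO label, the latter at the floor of detection. The fitted difference was -3.86 on the log2 scale (SE 0.77, adjusted p = 0.176 from limma, 5.72e-04 from DESeq2 and 0.190 from edgeR). Over the pooled reads, 167 in WT and 10 in the KO-labelled libraries, the level was 16.9-fold lower, with a 95% exact interval of 8.94 to 35.8 that covers counting error only. The log2 fold change ran from -3.26 without KO-labelled replicate 2 to -4.45 without KO-labelled replicate 1. Its size also depends on the value added before the logarithm, and was -2.60 with a pseudocount of 10 and -1.83 on log2(FPKM + 0.1), so the 14.5-fold is tied to a pseudocount of 1. In the same kind of fits, the DESeq2 adjusted p was 0.545 without WT replicate 1, 0.0690 without WT replicate 2, 0.00115 without KO-labelled replicate 1 and 0.0203 without KO-labelled replicate 2. In bulk RNA, fewer cells that carry a transcript and less transcript per cell cannot be told apart, and this holds for every gene given here.

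Erbb3 and Erbb4 were also compared with the other receptors inside each library, where the size factor cancels. Erbb3 stood at 0.0975 and 0.0347 times the FPKM of Erbb2 in WT against 0.0142 and 0.00724 times under the KO label. Erbb4 stood at 0.0369 and 0.0133 times the FPKM of Erbb2 in WT against 0.00193 and 0.00081 times under the KO label. Against Egfr the same pairs of ratios did not overlap either, with Erbb4 at 0.0556 and 0.0359 in WT against 0.00662 and 0.00123 under the KO label. These ratios reuse the Erbb3 and Erbb4 values given above, so they are not separate support for the differences. The ratio of Erbb3 to Erbb4 was 2.65 and 2.61 in WT against 7.32 and 8.94 under the KO label, the last 2 resting on the 7 and 3 reads of Erbb4.

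Tet enzymes act on methylated cytosine in CpG dinucleotides, so the start regions of the receptor genes are shown with every CpG in capitals, for Erbb4, which was lower in both KO-labelled libraries, and for Egfr and Erbb2, whose groups overlapped. RefSeq start windows on GRCm38.p6, from 250 bases before to 50 after the transcription start, were matched for 6 of the 10 genes by symbol (Erbb4, Egf, Areg, Tgfa, Egfr and Erbb2). The windows are Erbb4 at chr1:69108010-69108309 on the minus strand, Egfr at chr11:16751953-16752252 on the plus strand and Erbb2 at chr11:98412234-98412533 on the plus strand, each read from 5′ to 3′.
Erbb4: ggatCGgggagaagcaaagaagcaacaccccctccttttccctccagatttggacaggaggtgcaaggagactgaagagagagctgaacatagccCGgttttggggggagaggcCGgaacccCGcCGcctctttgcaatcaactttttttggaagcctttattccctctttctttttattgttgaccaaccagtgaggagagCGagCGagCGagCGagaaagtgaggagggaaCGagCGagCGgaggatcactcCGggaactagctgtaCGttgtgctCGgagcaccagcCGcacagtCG
Egfr: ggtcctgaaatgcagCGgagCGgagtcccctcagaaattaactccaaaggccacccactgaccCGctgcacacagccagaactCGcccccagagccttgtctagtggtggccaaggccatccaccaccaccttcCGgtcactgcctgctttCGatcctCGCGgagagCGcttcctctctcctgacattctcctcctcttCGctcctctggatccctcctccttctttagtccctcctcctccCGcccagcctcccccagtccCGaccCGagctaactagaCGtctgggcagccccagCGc
Erbb2: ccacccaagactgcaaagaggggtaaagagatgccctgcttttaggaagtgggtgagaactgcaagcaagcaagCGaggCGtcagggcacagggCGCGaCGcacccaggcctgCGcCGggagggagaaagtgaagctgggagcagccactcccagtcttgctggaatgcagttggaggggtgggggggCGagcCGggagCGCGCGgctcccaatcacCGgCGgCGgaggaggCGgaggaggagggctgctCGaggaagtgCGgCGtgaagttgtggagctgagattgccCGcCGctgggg
The Erbb4 window held 17 CpG, the Egfr window 15 and the Erbb2 window 21, beside a median of 7 over 32851 windows of 300 bases. The Erbb4 window had more CpG than 68.6% of all windows, and those of Egfr and Erbb2 more than 65.4% and 75.2%. Among the ligands, the windows of Tgfa and Areg held 24 and 21 CpG, and the 2 start windows of Egf held 0 and 17. CpG methylation was not measured in the table analysed here.

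Among the ligands, Hbegf had the highest FPKM in every library and Nrg1 the second highest. Tgfa came next in every library. Egf, Areg and Ereg stayed at or under 0.241 FPKM, except for Areg in KO-labelled replicate 2. The ranges of neighbours over the libraries overlapped for Areg, Egf and Ereg, as they did for Nrg1 and Tgfa, but not for Hbegf and Nrg1. The sum over the ligands was 41.4 and 46.3 FPKM in WT against 124 and 315 FPKM under the KO label, and Hbegf alone made up 70.6% and 83.8% of it in WT and 95.6% and 93.6% in the KO-labelled libraries. These sums and shares use the length that the table gives for Hbegf. With the longer annotated length from GENCODE M21 its share was 54.1% and 71.7% in WT against 91.5% and 87.8% under the KO label, and the sums were 26.5 and 26.5 FPKM against 63.4 and 165 FPKM.

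**Figure D2:**
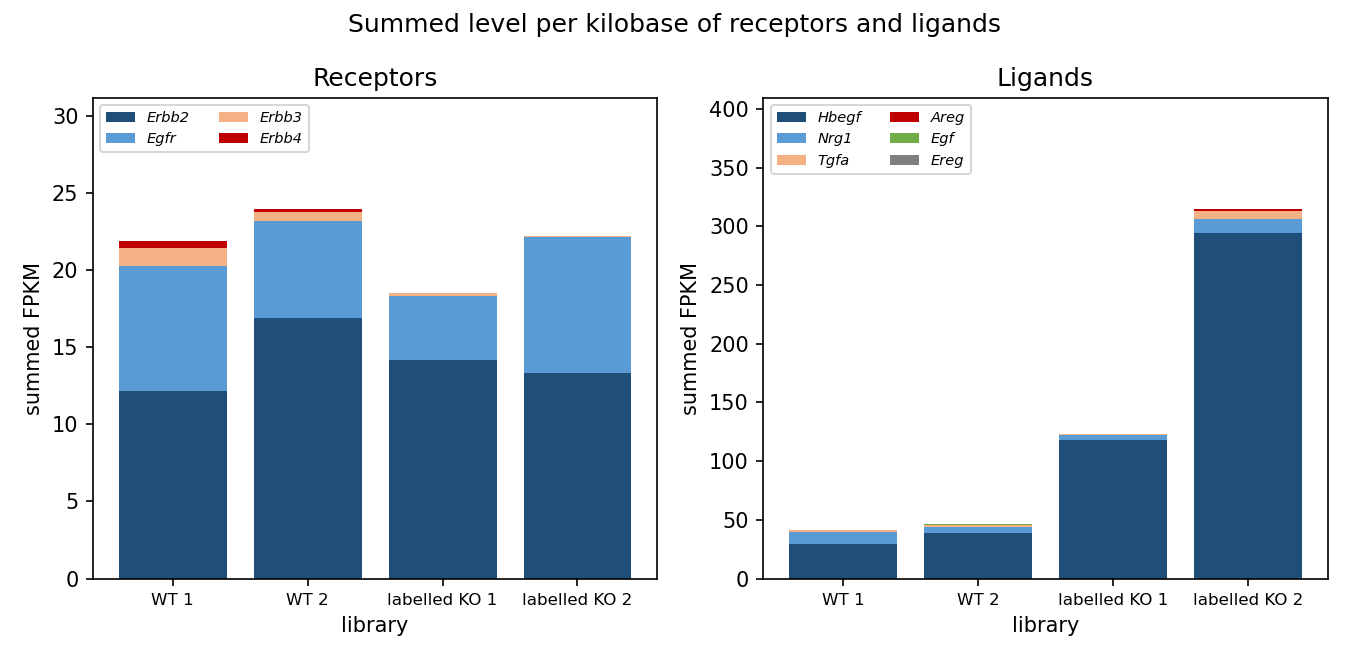
Summed FPKM of the 4 receptor genes (left) and the 6 ligand genes (right) in each library, each bar divided by gene. The receptor sum stays between 18.5 and 24.0 FPKM with Erbb2 and Egfr as its main parts, while the ligand sum is larger in both KO-labelled libraries (124 and 315 FPKM) than in WT (41.4 and 46.3 FPKM) through Hbegf, at the gene length that the table gives.

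Hbegf (ENSMUSG00000024486) encodes heparin-binding EGF-like growth factor, a ligand of the EGF receptor and of ErbB4, and lies on the minus strand of chromosome 18 from 36504929 to 36515805. It had 1387 and 1918 normalized counts in WT against 6215 and 14125 under the KO label, or 1653 ± 376 (SD, n = 2) against 10170 ± 5593 (SD, n = 2). The WT libraries were the lowest pair, and the 2 KO-labelled libraries differed from each other by 1.18 on the log2 scale. The fitted difference was 2.52 on the log2 scale (SE 0.47, adjusted p = 0.165 from limma, 2.22e-04 from DESeq2 and 0.177 from edgeR). Taken over the 4 cross-group pairs of libraries, the differences ran from 1.70 to 3.35 on the log2 scale. The log2 fold change was 1.93 without KO-labelled replicate 2 and 3.11 without KO-labelled replicate 1, and the DESeq2 adjusted p was 0.121 without WT replicate 1 and at most 0.026 without each of the other libraries. No other gene annotated in GENCODE M21 overlaps Hbegf or Areg, while Erbb4 shares its strand with 8 overlapping genes, and Egfr, Erbb2 and Nrg1 overlap 1, 2 and 2 antisense genes. Whether the counting used strand is not given in the sources used here.

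Set against its receptor in the same library, Hbegf had 3.62 and 6.20 times the FPKM of Egfr in WT against 28.6 and 33.6 times under the KO label. The table gives Hbegf a length of 2373 bases, while the union of its exons in GENCODE M21 is 4834 bases. With the longer length, its level was 14.3 and 19.0 FPKM in WT against 58.0 and 145 FPKM under the KO label, still above Nrg1 in each library, by 1.38-fold in WT replicate 1. The comparison between libraries does not depend on this length.

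Nrg1 (ENSMUSG00000062991, chromosome 8, minus strand, from 31814551 to 32884029), the neuregulin that binds ErbB3 and ErbB4, had 2147 and 1160 normalized counts in WT against 929 and 2344 under the KO label. The lowest and the highest library again carried the KO label. The fitted difference was -0.10 on the log2 scale (SE 0.56, adjusted p = 0.953 from limma), and it turned to 0.57 without KO-labelled replicate 1 and to 0.35 without WT replicate 1. As FPKM, Nrg1 was at 10.4 and 5.38 in WT against 4.05 and 11.2 under the KO label. Relative to Erbb3 it stood at 8.73 and 9.17 times the FPKM in WT against 20.2 and 116 times under the KO label.

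Tgfa (ENSMUSG00000029999, chromosome 6, plus strand, from 86195223 to 86275719), a ligand of the EGF receptor, had 200 and 231 normalized counts in WT against 177 and 944 under the KO label. KO-labelled replicate 1 was the lowest library and replicate 2 the highest. The fitted difference was 0.93 on the log2 scale (SE 0.81, adjusted p = 0.642 from limma), and it was -0.28 without KO-labelled replicate 2. Areg, which encodes amphiregulin, was listed with 0 and 3 reads in WT against 0 and 39 reads under the KO label. A count of 0 allows up to 3.20 normalized counts in WT replicate 1 and 3.21 in KO-labelled replicate 1, so that only KO-labelled replicate 2, at 35.2, lay above the floor. Ereg, which encodes epiregulin, had 3 and 14 reads in WT against 0 and 15 under the KO label, and replicate 1 was the lower library in both groups. Both genes lie close together on chromosome 5, from 91139599 to 91148432 and from 91074622 to 91093646. Egf had 54.4 and 35.9 normalized counts in WT against 24.6 and 26.1 under the KO label. The groups did not overlap for Egf, but the log2 fold change of -0.78 (SE 0.58, adjusted p = 0.599 from limma) was not past the threshold, and 3 annotated antisense genes overlap it.

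**Figure D3:**
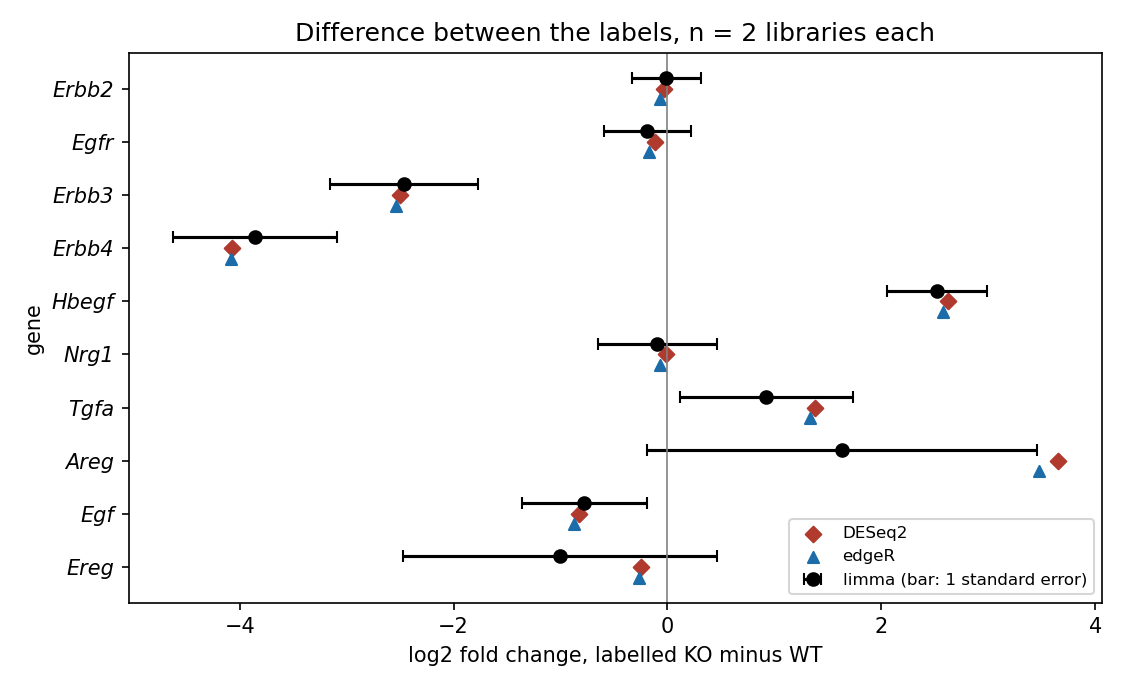
Log2 fold change between the KO-labelled libraries and WT for each gene, from limma (black points, bars of 1 standard error, n = 2 libraries per group), DESeq2 (red diamonds) and edgeR (blue triangles). Erbb3, Erbb4 and Hbegf lie farthest from 0 relative to their error, and the 3 tools differ most for Areg, which had 0 or 3 reads in 3 of the 4 libraries.

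Of 5 other EGF-family ligands, 0 were higher and 0 lower at an unadjusted p under 0.05 from limma, beside 4.54% and 9.18% of all genes. A count of 0 among 5 genes does not set them apart from those shares. Nrg2 was the most abundant of them, with 718 and 616 normalized counts in WT against 524 and 220 under the KO label (log2 fold change -0.97, adjusted p = 0.452 from limma). Btc, which encodes betacellulin, had 16.0 and 24.8 normalized counts in WT against 3.21 and 35.2 under the KO label. Like Ereg it was lower in replicate 1 than in replicate 2 of both groups. Nrg4 had 7.47 normalized counts in WT replicate 1 and 6.42 in KO-labelled replicate 1, and its groups overlapped. Nrg3 and Epgn were close to the floor, with at most 7.49 normalized counts.

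Of 8 genes of ligand shedding, 3 were higher and 1 was lower at an unadjusted p under 0.05, beside 4.54% and 9.18% of all genes, and their median log2 fold change was 0.67 beside -0.07 over all genes tested. Adam12, a metalloprotease known to release HB-EGF, had 421 and 165 normalized counts in WT against 1945 and 4982 under the KO label. Its log2 fold change was 3.56 (SE 0.65, adjusted p = 0.160 from limma and 2.11e-05 from DESeq2). It was 2.88 without WT replicate 2 or KO-labelled replicate 2, 4.23 without WT replicate 1 and 4.24 without KO-labelled replicate 1. Adam9, a related metalloprotease, had 2431 and 2117 normalized counts in WT against 6170 and 7689 under the KO label, with a log2 fold change of 1.60 (adjusted p = 0.161 from limma, 0.00424 from DESeq2). The iRhom genes, whose products carry ADAM17 to the cell surface, lay on opposite sides. Rhbdf1 had 1619 and 1623 normalized counts in WT against 2798 and 2863 under the KO label, while Rhbdf2 had 856 and 1608 in WT against 73.9 and 424 under the KO label. Their log2 fold changes were 0.80 and -2.72 (adjusted p = 0.314 and 0.301 from limma, 0.298 and 0.0678 from DESeq2), and that of Rhbdf2 was -1.47 without KO-labelled replicate 1 and -3.97 without KO-labelled replicate 2. Adam17 itself, the main sheddase of EGF receptor ligands, had 1546 and 1692 normalized counts in WT against 2723 and 2139 under the KO label (log2 fold change 0.58, adjusted p = 0.448 from limma).

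Of 20 adaptors and kinases downstream of the receptors, 1 was higher and 0 were lower at an unadjusted p under 0.05, near the 4.54% higher over all genes (9.18% lower), with a median log2 fold change of 0.16. The gene was Hras, a Ras GTPase, with 598 and 773 normalized counts in WT against 1465 and 1999 under the KO label (log2 fold change 1.33, adjusted p = 0.225 from limma and 0.0533 from DESeq2). Mapk3, the most abundant gene of the list by the mean of the libraries, was at 76.8 and 100.4 FPKM in WT against 71.5 and 40.2 FPKM under the KO label. In KO-labelled replicate 2 it lay below Akt1, at 75.5 FPKM. This ERK kinase gene had a log2 fold change of -0.66 (adjusted p = 0.538 from limma). The sum over the list was 482 and 510 FPKM in WT against 505 and 504 FPKM under the KO label.

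Of 13 negative regulators, 3 were higher and 0 were lower at an unadjusted p under 0.05, beside 4.54% higher and 9.18% lower over all genes, with a median log2 fold change of 0.46. Cbl, a ubiquitin ligase that sends activated EGF receptor to degradation, had 1006 and 1023 normalized counts in WT against 2834 and 3688 under the KO label. Spry1, an inhibitor of Ras and ERK signalling, had 281 and 173 normalized counts in WT against 1286 and 866 under the KO label. Dusp6, the ERK phosphatase that ERK signalling induces, had 887 and 1037 normalized counts in WT against 1888 and 2747 under the KO label. Of the 13, 6 were higher and 1 was lower without overlap between the groups, beside 22.5% and 25.4% of all genes. These 3 genes were among the 6. The log2 fold changes were 1.67, 2.25 and 1.25 (adjusted p = 0.150, 0.159 and 0.238 from limma), and DESeq2 called Cbl and Spry1 (adjusted p = 0.00271 and 7.61e-04) but not Dusp6 (adjusted p = 0.0731). Errfi1, the inhibitor Mig6 of the EGF receptor kinase, had 297 and 286 normalized counts in WT against 411 and 711 under the KO label (log2 fold change 0.89, adjusted p = 0.404 from limma). Lrig1, which lowers ErbB receptor protein, had 2874 and 5423 normalized counts in WT against 1907 and 4882 under the KO label.

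Of 10 genes that respond to ERK signalling, 1 was higher and 0 were lower at an unadjusted p under 0.05, beside 4.54% and 9.18% of all genes. Etv4, an ETS transcription factor, had 254 and 240 normalized counts in WT against 537 and 1023 under the KO label (log2 fold change 1.58, adjusted p = 0.244 from limma and 0.0321 from DESeq2). Egr1 had 197 and 646 normalized counts in WT against 801 and 1682 under the KO label, at an unadjusted limma p of 0.0504. Fosl1, an AP-1 subunit, had 105 and 126 normalized counts in WT against 140 and 1344 under the KO label. It was thus high in KO-labelled replicate 2 alone, where Tgfa and Areg were high. Fos, with 309 and 489 normalized counts in WT against 769 and 250 under the KO label, had its lowest value in that library. The median log2 fold change of the list was 0.47.

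**Figure D4:**
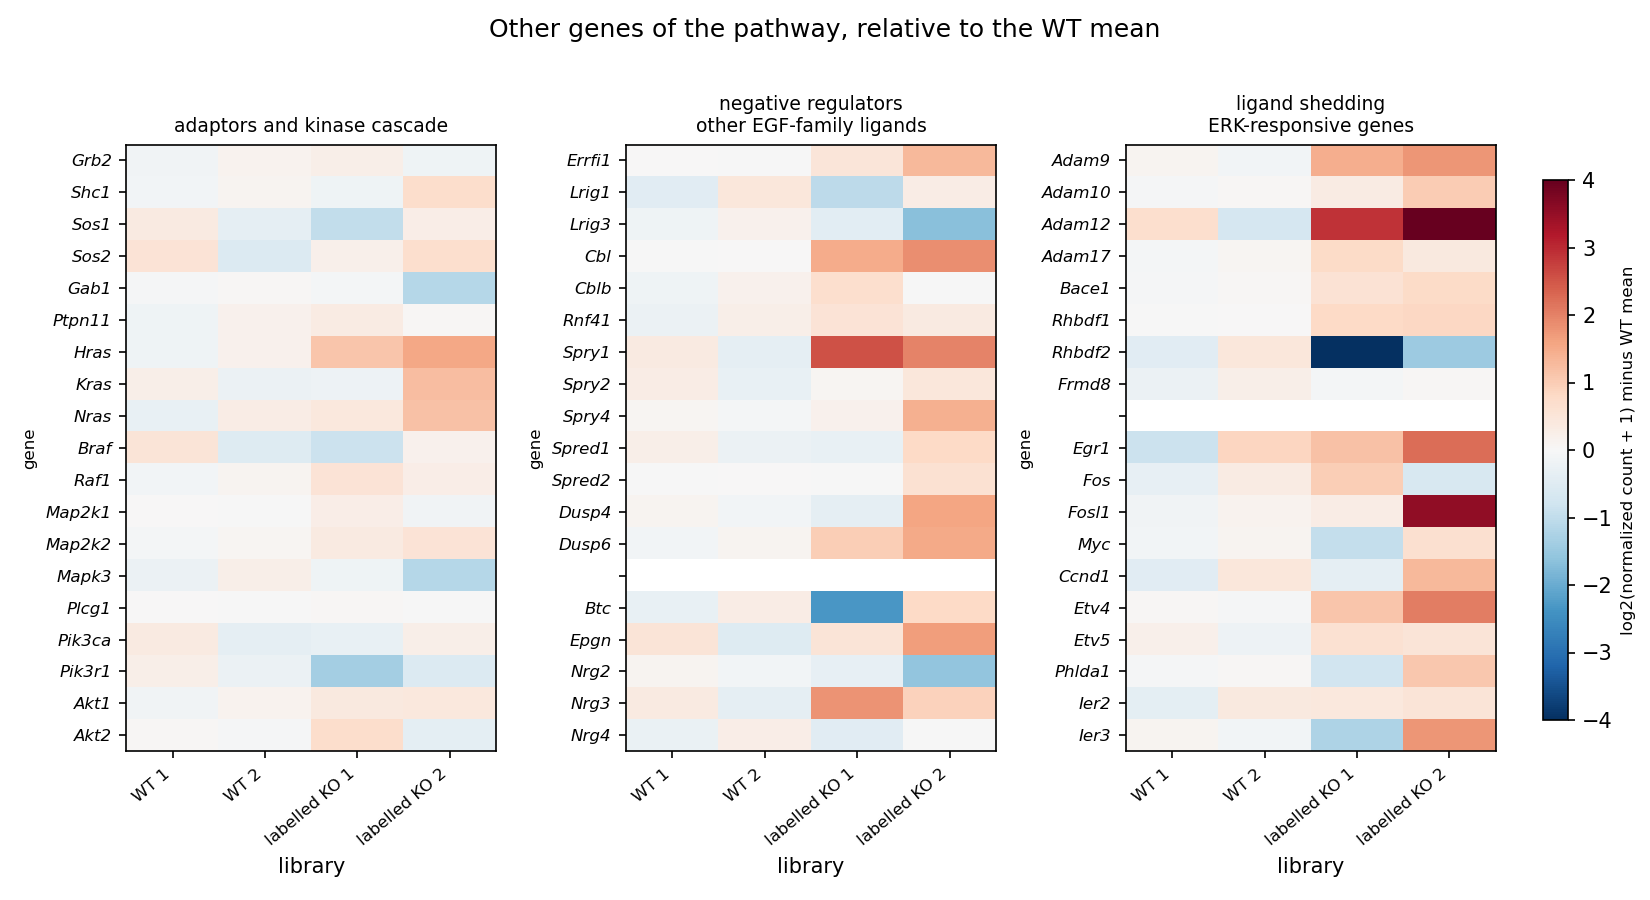
Log2(normalized count + 1) minus the WT mean for genes of the pathway lists (rows) in each library (columns), from blue (lower) to red (higher), with colours limited to 4 in either direction. Adam9, Adam12, Cbl, Spry1, Dusp6 and Etv4 are higher in both KO-labelled libraries, Rhbdf2 is lower in both, and Fosl1 is high in KO-labelled replicate 2.

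Marker genes of other cells differed between the labels beside these genes, and their part in the differences was not tested. Beside each count of markers at an unadjusted p under 0.05 stand 4.54% of all genes higher and 9.18% lower. Of 9 microglia markers, 0 were higher and 6 lower, and 8 were lower without overlap between the groups, beside 25.4% of all genes. C1qa, a complement gene of microglia, had 12.9 and 20.4 FPKM in WT against 1.44 and 0.258 FPKM under the KO label. P2ry12, counted among the 6 and the 8, had 6 and 5 reads in WT against 0 and 1 under the KO label. It passed the filter only through WT, so its place in these counts carries no weight. Of 4 markers of neural progenitors and cycling cells, 3 were higher and 0 lower (4.54% and 9.18% over all genes), and their sum was 86.3 and 122 FPKM in WT against 173 and 374 FPKM under the KO label, mainly from Nes. Of 7 astrocyte markers, 2 were lower (Slc1a2 and Sox9) and 0 higher (9.18% and 4.54% over all genes). Without overlap between the groups, 5 were lower and 0 higher, beside 25.4% and 22.5% of all genes. Slc1a2 had 43.4 and 21.2 FPKM in WT against 10.6 and 2.25 FPKM under the KO label.

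Since ErbB3 and ErbB4 are known from oligodendrocyte lineage cells and neurons, the markers of those cells were read beside them. Of 8 oligodendrocyte lineage markers, 1 was lower (Cspg4, the NG2 proteoglycan, with 330 and 413 normalized counts in WT against 39.6 and 128 under the KO label) and 0 were higher, near the 9.18% lower over all genes (4.54% higher). Of the 8, 2 were lower without overlap between the groups (Cspg4 and Mbp) and 1 was higher (Olig2), beside 25.4% and 22.5% of all genes. Mbp had 39.5 and 155 normalized counts in WT against 34.3 and 26.1 under the KO label. Pdgfra had 163 and 578 against 82.4 and 182, and its groups overlapped. The sum over the list was 153 and 228 FPKM in WT against 370 and 231 FPKM under the KO label, with Olig1 the most abundant gene. Sox10, the factor that defines the lineage, had 0 and 10.1 normalized counts in WT against 2.14 and 3.61 under the KO label, and Mog was at 0 in KO-labelled replicate 1. Sox10 had at most 11 reads in any library, and the part of these cells in the Erbb3 and Erbb4 differences was not tested. Of 8 neuron markers tested, 2 were higher (Tubb3, and Dcx with 1 and 0 reads in WT against 7 and 5, which passed the filter only through the KO label) and 1 was lower (Gad1, with 0.991 and 0.468 FPKM in WT against 0.0885 and 0.193 FPKM under the KO label). Over all genes 4.54% were higher and 9.18% lower. The sum over the neuron markers was 20.3 and 23.8 FPKM in WT against 29.1 and 30.0 FPKM under the KO label, with Stmn2 the most abundant except in WT replicate 1, where Map2 was, and Snap25 was at 0 in both WT libraries.

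The fibroblast and mural markers summed to 21.2 and 28.1 FPKM in WT against 26.2 and 16.8 FPKM under the KO label, mostly Pdgfrb, with Col1a2 higher and Dcn lower of 5 genes at an unadjusted p under 0.05. The 2 endothelial markers listed, of 3, summed to at most 0.284 FPKM, with Cdh5 the most abundant by the mean of the libraries but at 0 in WT replicate 1. Of 4 choroid plexus and ependymal markers 0 passed the test, and their sum was 120 and 189 FPKM in WT against 142 and 49.3 FPKM under the KO label, with Foxj1 the most abundant and Ttr at 0 in WT replicate 1. Sex-linked genes differed as well. Xist had 8.54 and 0.920 normalized counts in WT against 2896 and 13367 under the KO label, and the 4 Y-linked genes summed to 3765 and 1909 in WT against 0 and 830 under the KO label, so the label and the sex of the pups cannot be told apart.

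The genes closest to Egfr in pattern were those with the smallest value of the largest difference, over the 4 libraries, between log2 values centred on each gene's mean, among 12867 other genes with a mean of at least 50 normalized counts. They were Vezf1, a zinc finger factor, Snapc4 and Mterf3, whose largest difference from Egfr on the log2 scale was 0.037, 0.0386 and 0.0428. Vezf1 had 2104 and 1687 normalized counts in WT against 1138 and 2231 under the KO label. As with Egfr, its lowest and highest libraries were the 2 labelled KO. With only 4 libraries, the likeness is a description of them.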

How the data were processed

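Primary astrocyte RNA was sequenced as paired-end Illumina reads, which the authors filtered and aligned to mm10; the aligner, the counting program and the annotation release are not given in the sources used here. The signal values that the authors deposited, 1 for each gene in each library, come under the name FPKM. In each library 100% of these values came out whole when divided by what 1 read is worth (tolerance 0.02 reads, or the table's rounding for high counts), so they are normalized counts (reads over a size factor), from which whole reads were recovered. Size factors were 0.937 and 1.09 for WT against 0.934 and 1.11 under the KO label. FPKM was computed from the reads, the table's gene lengths and the reads on genes. The table also holds the authors' group means, fold changes and p-values (5 columns), which were not used. The experiment is described with 3 biological repeats per genotype, and 2 libraries per genotype were analysed here.

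The labels were compared with limma 3.58.1 under R 4.3.3 (a linear model, eBayes with trend) on log2(normalized count + 1). The pseudocount weighs on the fold changes of low genes, which can come out smaller or larger than from the reads. The fit covered 22094 genes whose mean reached 1, and p-values were adjusted by Benjamini-Hochberg over all of them. edgeR 4.0.16 (quasi-likelihood test, TMM) and DESeq2 1.42.0 served as alternatives, with the recovered reads as input. DESeq2 gave no adjusted p for 4712 genes. Libraries of 1 group differed by more than the sampling noise (median chi-square per gene 8.04 in WT and 27.0 under the KO label, against 0.45 for noise alone). Gene positions matched GENCODE M21 for 9 of the 10 genes, all but Hbegf. The scripts were tested on simulated data. The members and the gene lists were chosen with earlier results of these data known. Named genes are the 10 members, Tet1, list genes at an unadjusted p under 0.05 with abundant examples, and the 3 genes most like Egfr. Btc, Egr1, Fosl1, Fos, Lrig1, Errfi1 and Adam17 and the marker genes given beside them were named from the lists with their values seen. Some list genes are counted but not reported here by name.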

Additional observations from a re-analysis of the deposited data

How the results depend on the processing

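Of 20 named genes of the pathway and Tet1, 13 kept their direction under every alternative run. Of the 10 members, these were Hbegf, Erbb3, Erbb4 and Egf. The others were list genes named for an unadjusted p under 0.05 in limma, so the count does not measure stability. In all 13 the groups did not overlap, and leaving out 1 library then cannot turn the direction. The alternatives were pseudocounts of 0.1 and 10, no filter on low values or a mean of at least 10, equal sums, quantile or TMM scaling, eBayes without a trend, a replicate block, FPKM, edgeR, DESeq2 and leaving out each library. The count of genes called, 0 in limma (unadjusted p under 0.05 for 3032), was 1088 with DESeq2 and 2 with FPKM as the tested value, and 3 of the 10 family genes were called with DESeq2. Direction turned for 7 genes, all with overlapping groups, and only when a library was left out. The log2 fold change then ranged from -0.66 to 0.29 for Egfr, from -0.28 to 0.25 for Erbb2, from -0.28 to 2.13 for Tgfa, from -0.96 to 4.22 for Areg, from -2.93 to 0.93 for Ereg, from -0.76 to 0.57 for Nrg1 and from -0.0508 to 1.36 for Tet1. Why libraries of the same label differed in these genes was not tested. For Erbb4 it ran from -4.12 with a pseudocount of 0.1 to -1.83 with FPKM among the settings that kept all libraries.

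The number of family genes at an unadjusted p under 0.05, 3 in limma, was 0 without WT replicate 1, 2 without WT replicate 2, 5 without KO-labelled replicate 1 and 2 without KO-labelled replicate 2, beside 5.14%, 6.25%, 21.9% and 13.4% of all genes. Such fits leave 1 library in a group, which is assumed to vary like the other group. Under the replicate block, 0 genes were called and 2583 had an unadjusted p under 0.05, 3 of them in the family. Deviations of same-numbered libraries had a correlation of -0.08 over 22094 genes, and the labels describe no pairing. Over all genes, the median log2 fold change moved from -0.07 to 0.06 under quantile normalization, and the genes at an unadjusted p under 0.05 from 1004 higher and 2028 lower to 1371 and 1537. Without WT replicate 1, DESeq2 gave Hbegf, Erbb3 and Erbb4 adjusted p of 0.121, 1.0 and 0.545. These fits, and the longer Hbegf length, were chosen after seeing the data. Areg and Ereg, and Erbb4 in the KO-labelled libraries, had only 0 to 39 reads per library, with 2 libraries per group. Whether depth limits these comparisons was not tested.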

Other observations

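Further genes tied to these receptors by name were looked at after their values were seen. Eldr, a long non-coding RNA whose annotated gene starts 16996 bases beyond the end of Egfr on chromosome 11, had 14.9 and 34.0 normalized counts in WT against 43.9 and 37.0 under the KO label (log2 fold change 0.80, standard error 0.67, adjusted p = 0.629 from limma). Erbin, which encodes a scaffold protein that binds ErbB2, had 4367 and 1702 normalized counts in WT against 821 and 3952 under the KO label (log2 fold change -0.60, standard error 0.85, adjusted p = 0.791 from limma). Its lowest library was KO-labelled replicate 1, as for Egfr and Nrg1.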
